A study of Homo sapiens with 22 samples.

Results

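A set of 30 genes was silent in HN-6 cells given a control siRNA and switched on after 72 h of UHRF1 siRNA. They were chosen from the 57316 gene lines of the UHRF1 siRNA count table by their own values in that table: a mean of at most 0.1 CPM (the read count scaled by the library's total reads in genes) in the control libraries and of at least 0.5 CPM in the UHRF1 siRNA libraries. Their difference in that experiment is therefore a description with no test. HN-6 is a line grown from a human squamous carcinoma of the head and neck, and all 22 libraries came from cells given human IFN-β at 1000 U/ml for 24 h. The groups were HN-6 with siUHRF1 against HN-6 with siNC, the negative control siRNA (3 libraries each). HN-6 with 1 SMYD3 siRNA, si1SMYD3, for 72 h was set against its own siNC (3 each). HN-6 with the SMYD3 antisense oligonucleotide ASO081 for 72 h was set against PBS (2 each), and the single SMYD3 knockout clone 5-3 against the parental HN-6 line (3 each). Results from that clone cannot be told apart from differences between clones. No group without interferon was analysed here.

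UHRF1 binds hemimethylated CpG sites behind the replication fork and brings in DNMT1, the maintenance DNA methyltransferase, so that the methylation pattern passes to the new strand. Loss of this pathway is known to release genes that are held silent by promoter methylation, and germline and cancer-testis genes are the usual examples. RARB, the retinoic acid receptor beta gene, is a known target of promoter methylation in carcinomas. DNA methylation was not measured in the data analysed here. SMYD3 is a lysine methyltransferase.

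The UHRF1 siRNA experiment had the highest read counts in genes, 57588142 to 62921144 per library. The SMYD3 siRNA libraries had 32441991 to 54121262 reads, the ASO libraries 30792923 to 32045158 and the knockout libraries 24783605 to 47702859. UHRF1 had 1.82, 2.65 and 2.04 CPM with the UHRF1 siRNA, against 68.2, 64.1 and 66.1 CPM with the control siRNA, and DNMT1 averaged 105.9 ± 9.23 CPM against 191.2 ± 4.74 CPM (SD, n = 3 each). SMYD3 averaged 8.19 ± 0.494 CPM with the UHRF1 siRNA and 12.8 ± 0.998 CPM in its control (SD, n = 3 each; edgeR log2 fold change -0.57 ± 0.09 SE, adjusted p = 3.3e-07). Of the UHRF1 siRNA table's values from 1 to 20, 71.2% to 73.1% were even numbers, against 38.7% to 40.03% in the SMYD3 siRNA and ASO tables and 49.1% to 52.4% of the reads recovered from the knockout table. The reads behind a low value in that table may therefore not be separate fragments. The same may hold for its totals, so this experiment need not be the deepest in fragments. The part of this in the choice of the 30 genes and in the edgeR p-values of that experiment was not tested. The 6 squamous epithelial markers summed to between 3867.5 and 3989.1 CPM with the UHRF1 siRNA and to between 3197.1 and 3288.7 CPM with the control siRNA. CDH1 averaged 2769.3 and 1808.7 CPM, EPCAM 663.6 and 1232.0 CPM and KRT17 365.8 and 32.9 CPM with the UHRF1 siRNA and the control siRNA. KRT5 averaged 107.7 CPM with the UHRF1 siRNA and 145.7 CPM with the control siRNA, TP63 11.99 and 14.05 CPM, and KRT14 only 0.508 and 0.323 CPM.

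The 30 genes were weakly expressed after the siRNA. LGR5, a receptor for R-spondins and a marker of epithelial stem cells, was the highest, with 2.26, 2.07 and 1.98 CPM with the UHRF1 siRNA against 0.162, 0.0636 and 0.0334 CPM with the control siRNA. Only 6 of the 30 reached 1 CPM, and the median over the genes was 0.660 CPM with the UHRF1 siRNA against 0.0621 CPM with the control siRNA. Summed over the 30 genes, the level was 23.9, 24.4 and 24.8 CPM in the UHRF1 siRNA libraries against 2.20, 1.78 and 1.502 CPM in the control libraries. The reads of a gene summed over 3 libraries ran from 90 to 376 with the UHRF1 siRNA and from 3 to 18 with the control siRNA. No gene was at 0 in all of its control libraries, and 16 had at least 1 control library at 0. The 2 groups did not overlap in any of the 30 genes, which the choice nearly fixes; over all lines with reads 19.5% were higher with no overlap. In bulk RNA, fewer cells of a kind and less RNA per cell cannot be told apart, so a low mean may be a low level in all cells or a higher one in a few.

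**Figure D1:**
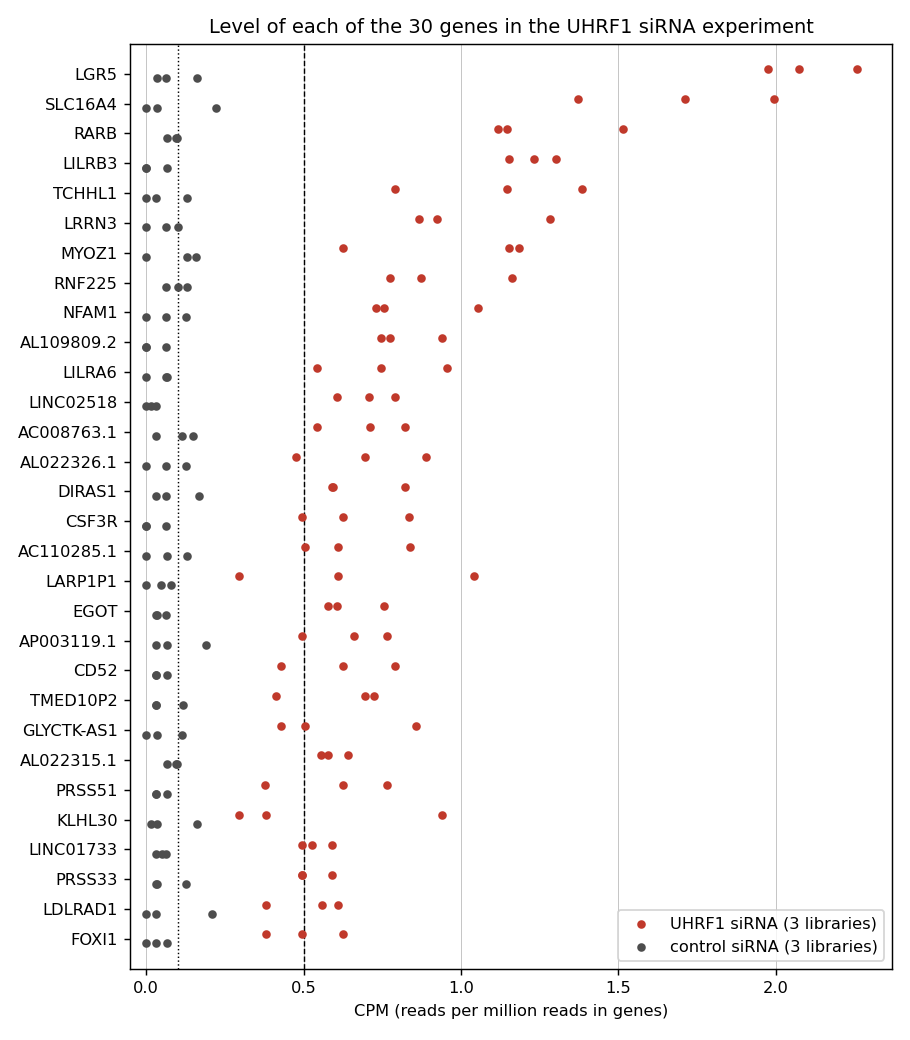
CPM of each of the 30 genes in the 3 UHRF1 siRNA libraries (red) and the 3 control siRNA libraries (grey), ordered by the mean with the UHRF1 siRNA. The dotted line marks 0.1 CPM and the dashed line 0.5 CPM, the limits for the group means; single libraries of many genes lie past them on the wrong side, and the highest gene is LGR5 at 1.98 to 2.26 CPM.

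SLC16A4, a member of the monocarboxylate transporter family, had 1.37, 1.71 and 1.99 CPM with the UHRF1 siRNA against 0, 0.223 and 0.0334 CPM with the control siRNA. Its control reads came almost all from 1 library. RARB had 1.15, 1.12 and 1.52 CPM with the UHRF1 siRNA against 0.0970, 0.0954 and 0.0667 CPM with the control siRNA, and every library was past its limit. TCHHL1, a trichohyalin-like protein of the epidermal differentiation complex, had 1.15, 0.790 and 1.38 CPM with the UHRF1 siRNA against 0.129, 0.0318 and 0 CPM with the control siRNA. LRRN3, a leucine-rich repeat neuronal protein, had 0.868, 1.28 and 0.922 CPM with the UHRF1 siRNA against 0.0647, 0 and 0.1001 CPM with the control siRNA.

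LILRB3, LILRA6, NFAM1, CSF3R and CD52 are described together because each is known from blood cells; they were grouped after their values were seen, with no list and no test behind the grouping. LILRB3, an inhibitory leukocyte immunoglobulin-like receptor, had 1.23, 1.15 and 1.301 CPM with the UHRF1 siRNA against 0, 0 and 0.0667 CPM with the control siRNA. LILRA6, a receptor of the same family, had 0.747, 0.954 and 0.544 CPM against 0, 0.0636 and 0.0667 CPM. The starts of these 2 paralogs lie 19285 bases apart on chromosome 19, the only pair of the 30 with starts within 100 kb of each other, and their sequences are so alike that reads of one may have been counted for the other. NFAM1, an immune receptor with an activation motif, averaged 0.847 ± 0.180 CPM with the UHRF1 siRNA against 0.0639 ± 0.0636 CPM with the control siRNA (SD, n = 3 each). CSF3R, the receptor for granulocyte colony-stimulating factor, averaged 0.651 ± 0.171 against 0.0216 ± 0.0373 CPM, and CD52, a leukocyte surface antigen, 0.615 ± 0.182 against 0.0436 ± 0.0200 CPM (SD, n = 3 each). A list of 6 leukocyte markers summed to between 3.65 and 4.41 CPM per library with the UHRF1 siRNA and to between 1.44 and 1.49 CPM with the control siRNA. Within it LYZ had 2.69 and 0.523 CPM and CD14 1.29 and 0.875 CPM with the UHRF1 siRNA and the control siRNA, PTPRC, the pan-leukocyte antigen, had 0.0329 and 0.0643 CPM, and CD3E had 0 reads in both groups. Of the 6 markers 4 were at or under 0.1 CPM in each group. Other marker lists moved too: 6 fibroblast markers summed to between 490.5 and 560.0 CPM with the UHRF1 siRNA against 121.8 to 122.3 CPM with the control siRNA, most of it COL1A1 with 491.5 and 84.2 CPM. PDGFRB had 8.53 CPM with the UHRF1 siRNA and 20.4 CPM with the control siRNA, LUM 16.1 and 17.3 CPM, COL1A2 0.156 and 0.0857 CPM, COL3A1 0.0341 and 0.0212 CPM and DCN 0 and 0.0108 CPM. The 5 endothelial markers summed to between 22.1 and 23.4 CPM with the UHRF1 siRNA against 8.68 to 9.38 CPM with the control siRNA. CDH5 had 17.1 CPM with the UHRF1 siRNA and 6.70 CPM with the control siRNA and VWF 5.52 and 1.70 CPM, while PECAM1 had 0.188 and 0.303 CPM, TEK 0.0555 and 0.347 CPM, and KDR was at 0 in both. The part of any of these lists in the choice of the 30 genes was not tested.

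The remaining coding genes were of mixed function. MYOZ1, a protein of the muscle Z-disc, averaged 0.988 ± 0.314 CPM with the UHRF1 siRNA and 0.0961 ± 0.0845 CPM with the control siRNA (SD, n = 3 each). RNF225, a RING finger protein, averaged 0.937 ± 0.203 and 0.0977 ± 0.0329 CPM, and DIRAS1, a small GTPase of the Ras family, 0.669 ± 0.133 and 0.0876 ± 0.0704 CPM (SD, n = 3 each). PRSS51 and PRSS33, serine proteases, averaged 0.590 and 0.526 CPM with the UHRF1 siRNA, KLHL30, a kelch-like protein, 0.539 CPM, LDLRAD1, with a low-density lipoprotein receptor class A domain, 0.517 CPM, and FOXI1, a forkhead factor of ionocytes, 0.501 CPM. KLHL30 owed its place to 1 library, with 0.382, 0.296 and 0.939 CPM with the UHRF1 siRNA against 0.162, 0.0159 and 0.0334 CPM with the control siRNA. Germ cell markers did not accompany the set: a list of 6 summed to between 0 and 0.0695 CPM per library with the UHRF1 siRNA and to between 0.1001 and 0.3233 CPM with the control siRNA.

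By GENCODE annotation, 18 of the 30 genes are protein coding, 9 are long noncoding RNAs and 3 are pseudogenes. The coding share, 60%, stood beside 15.4% of all lines at or under 0.1 CPM in the control libraries and 35.0% of all lines of the table. Of the 31 lines that the same limits pick in the other direction 54.8% are coding. Per kilobase of exon, the highest levels with the UHRF1 siRNA belonged to short noncoding lines: LARP1P1 at 2.22, AL109809.2 at 1.66, AP003119.1 at 1.19, AL022315.1 at 1.19 and LINC02518 at 1.16 CPM per kb, against 0.403 for LGR5. LINC02518, a long intergenic noncoding RNA, had 0.608, 0.708 and 0.791 CPM with the UHRF1 siRNA against 0.0323, 0 and 0.0167 CPM with the control siRNA. AL109809.2, a pseudogene, had 0.747, 0.773 and 0.939 CPM against 0.0647, 0 and 0 CPM. The level of EGOT, a noncoding RNA within ITPR1 on the opposite strand, was 0.608, 0.757 and 0.576 CPM with the UHRF1 siRNA against 0.0323, 0.0636 and 0.0334 CPM with the control siRNA. The other noncoding lines, AC008763.1, AL022326.1, AC110285.1, AP003119.1, GLYCTK-AS1, AL022315.1 and LINC01733, averaged between 0.537 and 0.693 CPM with the UHRF1 siRNA.

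The same rule found about as many lines in the opposite direction. There were 37701 lines at or under 0.1 CPM with the control siRNA, of which 26723 had no reads in any library. With the UHRF1 siRNA 10138 of the others stayed at or under 0.1 CPM, 810 lay between 0.1 and 0.5 CPM and 30 were at or above 0.5 CPM, 0.0523% of all lines. Read the other way, 31 lines, 0.0541%, were at or under 0.1 CPM with the UHRF1 siRNA and at or above 0.5 CPM with the control siRNA. Of these 31 genes ERFE, which encodes the hormone erythroferrone, changed by the most, with a mean of 0.0390 CPM with the UHRF1 siRNA against 5.48 CPM with the control siRNA. The lines silent with the control siRNA summed to 376.5 CPM with the UHRF1 siRNA and to 293.3 CPM with the control siRNA, and the lines silent with the UHRF1 siRNA to 279.0 and 469.5 CPM.

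Membership at the limits rested on few reads. Just inside the control limit were AC008763.1, RNF225 and AP003119.1, at 0.0984, 0.0977 and 0.0966 CPM with the control siRNA. Just outside it were DUSP13, AC130324.1 and ECEL1P2, at 0.103, 0.103 and 0.104 CPM; DUSP13 had 2.23 CPM with the UHRF1 siRNA, above LGR5. Just inside the other limit were FOXI1, LDLRAD1 and PRSS33, at 0.501, 0.517 and 0.526 CPM with the UHRF1 siRNA, and just outside it AC024475.3, SCARA5 and SIRPB3P, at 0.497, 0.491 and 0.460 CPM. When every single library had to pass its limit, 7 genes remained: RARB, LILRB3, LILRA6, LINC02518, AL109809.2, EGOT and AL022315.1. With limits of 0.05 and 1 CPM the 1 gene left was LILRB3.

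The 30 genes lie on 15 chromosomes, with 5 each on chromosomes 1 and 19, 4 on chromosome 3 and 3 on chromosome 22. In the coordinates of the deposited table (hg38), LGR5 lies on chromosome 12 from 71439798 to 71586310 on the plus strand, SLC16A4 on chromosome 1 from 110362851 to 110391082 on the minus strand, RARB on chromosome 3 from 25174332 to 25597932 on the plus strand and TCHHL1 on chromosome 1 from 152084141 to 152089064 on the minus strand. LILRB3 lies on chromosome 19 from 54216278 to 54223506 and LILRA6 from 54236592 to 54242791, both on the minus strand and both inside the annotated span of RPS9, a ribosomal protein gene, on the opposite strand. LINC02518 lies on chromosome 6 from 113428540 to 113433421 on the minus strand.

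Within the set, 10 overlap a gene at or above 1 CPM in the control libraries, 9 of them on the opposite strand. The library kit keeps the strand, but whether the counting used it is not given in the sources used here, so reads of such partners may have been mixed. RPS9 had 151.1 CPM with the UHRF1 siRNA and 223.7 CPM with the control siRNA, TOP2B, which overlaps RARB, 63.5 and 56.4 CPM, and ITPR1, around EGOT, 9.39 and 10.9 CPM. The exception on the same strand is LARP1P1, a processed pseudogene of 292 exonic bases inside the histone gene HIST1H2BD. HIST1H2BD averaged 81.0 CPM with the UHRF1 siRNA against 24.0 CPM with the control siRNA (edgeR log2 fold change 1.83, adjusted p = 1.8e-33, n = 3 each), so the reads of LARP1P1, 1.04, 0.609 and 0.297 CPM with the UHRF1 siRNA, cannot be assigned to it with certainty. TMED10P2, a processed pseudogene, averaged 0.610 CPM with the UHRF1 siRNA and 0.0603 CPM with the control siRNA. It overlaps no expressed gene, but as a processed copy it may have been given reads of its parent gene.

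The expressed genes next to the 30 did not share one direction. Of the nearest neighbours at or above 1 CPM in the control libraries, 8 were higher, 11 lower and 11 not called at an edgeR adjusted p under 0.05 with the UHRF1 siRNA, where 36.2% of all such genes were higher and 38.4% lower. RPS9 is the neighbour of both LILRB3 and LILRA6, so that 10 different genes were lower. USP54, 5701 bases from MYOZ1, averaged 89.3 CPM with the UHRF1 siRNA and 42.7 CPM with the control siRNA (log2 fold change 1.14, edgeR adjusted p = 1.0e-24). TCHH, the trichohyalin gene 17253 bases from TCHHL1, was lower, with 1.53 CPM with the UHRF1 siRNA and 2.60 CPM with the control siRNA (log2 fold change -0.69, edgeR adjusted p = 0.0025).

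Promoter sequences from RefSeq (GRCh38.p14, from 250 bases before to 50 after a start) were found for 17 of the 30 genes, 23 windows in all. The 13 genes without a sequence include LGR5, the highest of the set, and LILRA6, DIRAS1 and PRSS51. Most of the 23 windows held few CpG sites, the dinucleotide that UHRF1 and DNMT1 act on. A window with at least 50% G and C and a CpG observed/expected ratio of at least 0.6, the usual marks of a CpG island, was found in 1 of the 17 genes (5.88%). This was 1 of the 4 RARB starts, and it lies outside the RARB span of the count table, while the others lie inside it. The same held for 27.0% of the 5591 genes at or under 0.1 CPM in the control libraries, for 85.9% of the 10191 genes at or above 1 CPM there, and for 8 of the 12 genes with a sequence that went from on to silent by the reverse rule (66.7%). The median CpG ratio, taking each gene's highest window, was 0.284 in the 17 genes, 0.311 in the silent genes, 0.866 in the genes at or above 1 CPM and 0.839 in the reverse-rule genes. These are shares with no test.

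Windows of RARB, SLC16A4, LILRB3, TCHHL1 and LINC02518 starts are shown. Their genes stand highest among those of the set with a sequence or recur in the other experiments. The window of ERFE is shown as the counterpart that went silent. CpG sites are in capitals; each sequence runs 5′ to 3′ on the gene's own strand.
RARB, start with a CpG island (chr3:24829071-24829370, plus strand, 33 CpG sites): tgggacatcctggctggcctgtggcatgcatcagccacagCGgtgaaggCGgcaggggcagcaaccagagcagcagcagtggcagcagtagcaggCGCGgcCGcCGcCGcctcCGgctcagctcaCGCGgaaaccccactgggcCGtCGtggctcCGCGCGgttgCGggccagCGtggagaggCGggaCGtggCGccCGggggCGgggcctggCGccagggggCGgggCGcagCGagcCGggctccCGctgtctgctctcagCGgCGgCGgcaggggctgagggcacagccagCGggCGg
RARB, another start (chr3:25428013-25428312, plus strand, 7 CpG sites): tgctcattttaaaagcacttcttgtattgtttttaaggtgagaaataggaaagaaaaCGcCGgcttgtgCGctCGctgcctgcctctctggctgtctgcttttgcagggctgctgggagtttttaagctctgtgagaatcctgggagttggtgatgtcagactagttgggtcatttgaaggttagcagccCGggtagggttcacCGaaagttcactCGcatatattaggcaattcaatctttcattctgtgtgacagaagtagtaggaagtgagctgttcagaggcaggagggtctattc
SLC16A4 (chr1:110390977-110391276, minus strand, 3 CpG sites): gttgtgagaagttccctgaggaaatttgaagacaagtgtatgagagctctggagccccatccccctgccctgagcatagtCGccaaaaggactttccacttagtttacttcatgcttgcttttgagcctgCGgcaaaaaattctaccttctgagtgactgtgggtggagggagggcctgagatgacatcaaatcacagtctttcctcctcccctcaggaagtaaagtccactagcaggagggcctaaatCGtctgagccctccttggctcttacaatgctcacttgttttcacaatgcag
LILRB3 (chr19:54222958-54223257, minus strand, 9 CpG sites): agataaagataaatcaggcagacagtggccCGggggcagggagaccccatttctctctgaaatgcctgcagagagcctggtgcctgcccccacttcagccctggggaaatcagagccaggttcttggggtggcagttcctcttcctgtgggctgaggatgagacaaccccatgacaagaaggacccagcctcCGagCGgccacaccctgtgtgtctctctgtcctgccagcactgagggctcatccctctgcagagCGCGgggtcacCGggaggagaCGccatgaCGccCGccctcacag
TCHHL1 (chr1:152089015-152089314, minus strand, 3 CpG sites): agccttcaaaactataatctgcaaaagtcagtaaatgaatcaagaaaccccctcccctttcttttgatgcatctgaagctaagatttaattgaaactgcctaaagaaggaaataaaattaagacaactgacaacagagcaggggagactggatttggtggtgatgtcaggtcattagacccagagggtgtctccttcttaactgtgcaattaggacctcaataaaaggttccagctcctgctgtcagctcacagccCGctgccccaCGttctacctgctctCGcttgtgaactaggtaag
LINC02518 (chr6:113433398-113433697, minus strand, 4 CpG sites): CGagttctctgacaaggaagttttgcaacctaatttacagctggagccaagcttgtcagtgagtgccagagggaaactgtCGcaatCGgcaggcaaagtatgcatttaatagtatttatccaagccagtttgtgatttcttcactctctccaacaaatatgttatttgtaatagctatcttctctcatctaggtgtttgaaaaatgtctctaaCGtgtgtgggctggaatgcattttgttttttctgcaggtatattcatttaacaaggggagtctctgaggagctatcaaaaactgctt
ERFE (chr2:238158720-238159019, plus strand, 38 CpG sites): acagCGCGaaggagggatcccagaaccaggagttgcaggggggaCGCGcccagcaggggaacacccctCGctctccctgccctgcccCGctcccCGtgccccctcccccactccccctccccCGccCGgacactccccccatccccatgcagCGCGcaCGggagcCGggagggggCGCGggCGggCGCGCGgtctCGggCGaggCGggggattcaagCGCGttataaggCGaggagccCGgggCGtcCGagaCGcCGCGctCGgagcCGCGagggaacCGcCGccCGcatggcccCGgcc

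The CpG-rich RARB window ends at 24829370, and the RARB span given in the count table starts only at 25174332. The table's line therefore does not cover that start. The other RARB window shown, from 25428013 to 25428312, lies inside the span. CpG sites past the end of a window were not counted, so a low ratio here does not describe the sequence beyond it. Which RARB start is methylated in carcinomas was not examined. The CpG ratio of the CpG-rich RARB window was 0.771, against 0.452 in the other RARB window shown. It was 0.165 for SLC16A4, 0.316 for LILRB3, 0.205 for TCHHL1, 0.336 for LINC02518 and 0.859 for ERFE. Of 6 short motifs searched on both strands, CACGTG, an E-box, was in 1 of the 17 genes (5.88%), KLHL30. It was in 10.4% of all 17453 genes with a sequence and in 6.67% of the 5591 silent with the control siRNA. TGACGTCA, GGCGGGAA, CCGGAAGT, an NRF1 motif and an interferon response element motif were in none of the 17. Of all genes 2.76%, 4.79%, 6.37%, 8.84% and 4.22% hold them. Of the silent genes only 1.22%, 2.18%, 1.09%, 2.15% and 4.33% do, so their absence from 17 genes lies near that background. The absence of a motif's letters says nothing of its factor.

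**Figure D2:**
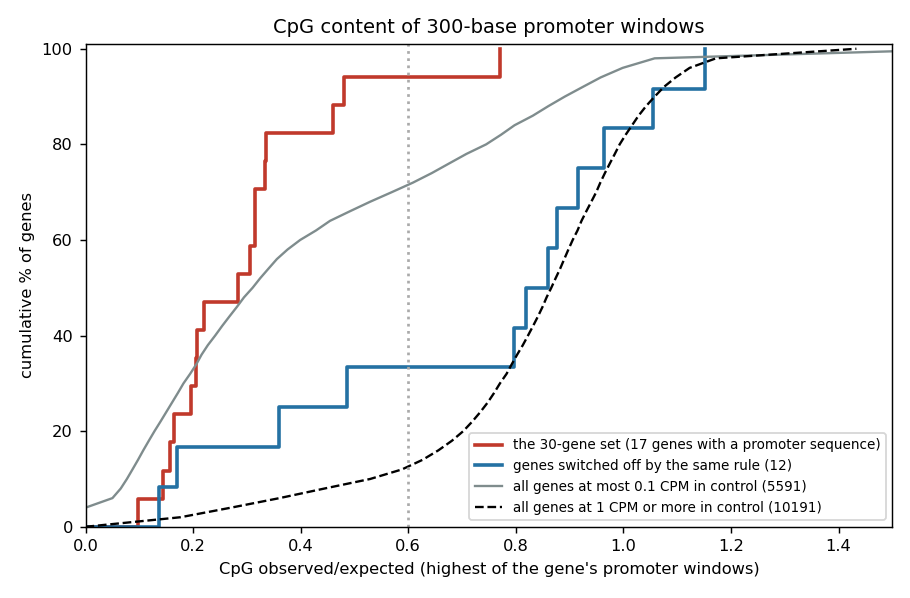
Cumulative share of genes by the CpG observed/expected ratio of their promoter windows, for the 17 genes of the set with a sequence (red), the 12 reverse-rule genes (blue), all genes silent with the control siRNA (grey) and all genes at or above 1 CPM (black, dashed). The dotted line marks 0.6; 1 of the 17 genes lies to its right, with a median of 0.284 against 0.866 for the genes at or above 1 CPM.

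None of the 30 genes is on lists of germline, cancer-testis, imprinted, neuronal, interferon, p53 or methylation machinery genes. Of 79 germline genes in the table, 49 were at or under 0.1 CPM with the control siRNA, and all 49 were still at or under 0.1 CPM with the UHRF1 siRNA; 27 of them had no read in any library. Of 118 cancer-testis genes 87 were silent with the control siRNA and 86 of these in both groups, 64 with no read. Of all 37701 silent lines 97.8% stayed at or under 0.1 CPM, so that these shares lie near the background. Among silent lines with a read, 22 of 22 germline and 22 of 23 cancer-testis genes stayed there, and 92.3% of all such lines. Among the germline genes with enough reads for edgeR, 3 were higher and 12 lower of 25 with the UHRF1 siRNA, and among the cancer-testis genes 5 were higher and 11 lower of 27, where 32.0% of all genes tested were higher and 32.7% lower. The median log2 fold changes were -0.34 and -0.04, against -0.01 over all genes. Leaving out 1 library at a time gave medians between -0.38 and -0.05 for the germline genes, with -0.05 without control siRNA replicate 1, and between -0.12 and -0.03 for the cancer-testis genes.

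TRIP13, an ATPase of meiosis and of the mitotic checkpoint, averaged 8.22 ± 0.793 CPM with the UHRF1 siRNA and 63.3 ± 2.69 CPM with the control siRNA (SD, n = 3 each; log2 fold change -2.87 ± 0.07 SE, edgeR adjusted p = 1.9e-38). DMC1, the meiotic recombinase, had no reads with the UHRF1 siRNA against a mean of 0.292 ± 0.0875 CPM, at least 17.4-fold lower when 3 reads over the group are taken as the floor. RAD21L1, a meiotic cohesin, and TEX19 were also lower, by log2 fold changes of -1.92 ± 0.67 and -1.54 ± 0.39 (SE; edgeR adjusted p = 0.011 and 4.8e-04, n = 3 each). Of the cancer-testis genes SPANXB1 averaged 2.44 CPM with the UHRF1 siRNA and 1.37 CPM with the control siRNA and SAGE1 35.8 and 26.6 CPM, while CT45A10 had 2.73 and 4.50 CPM and PLAC1 5.94 and 8.77 CPM (edgeR adjusted p = 9.8e-05, 9.4e-07, 1.9e-04 and 4.6e-05, n = 3 each). SPANXB1 and CT45A10 have near-identical copies, so their counts are uncertain.

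Of the other lists, 7 of 22 genes of the DNA methylation machinery were higher and 10 lower. The lower ones include UHRF1, the target of the siRNA. Of 23 repressors of germline genes, the PRC1.6 list, 9 were higher and 9 lower. In the interferon response list 50 of 53 were higher and 1 lower, with a median log2 fold change of 0.55, while of 3 interferon genes tested 1 was higher and 1 lower. These last counts rest on single libraries: 2 were higher without replicate 2 of either group, and 0 lower without replicate 1 of either group. Imprinted genes gave 6 higher and 11 lower of 27, p53 targets 10 and 7 of 20, and neuronal genes 3 and 5 of 14 (all by edgeR at an adjusted p under 0.05), beside 32.0% higher and 32.7% lower over all genes tested. The 5 lower neuronal genes became 2 without UHRF1 siRNA replicate 1 and 3 without control siRNA replicate 2 or 3.

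In the other experiments most of the set was not silent to begin with. Mean levels in the control siRNA libraries of the SMYD3 experiment were at or above 0.5 CPM for 17 of the 30 genes and at or under 0.1 CPM for 4. In the PBS libraries of the ASO experiment 12 were at or above 0.5 CPM and 6 at or under 0.1 CPM. The knockout table lists 7 of the 30, and 6 of these were at or above 0.5 CPM in parental cells. For comparison, 266 of all 37701 lines silent in the UHRF1 experiment's control libraries, 0.706%, were at or above 0.5 CPM with PBS. But 26723 of those lines had no read in that experiment, unlike the 30 genes, and the share among lines with reads was not counted. Of the 31 reverse-rule lines 19 were at or above 0.5 CPM with PBS, 61.3%. The tables were made separately, so levels set across them may differ for reasons of processing.

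Both controls held the same 12 genes at or above 0.5 CPM: RARB, TCHHL1, LINC02518, LGR5, FOXI1, LDLRAD1, MYOZ1, NFAM1, AP003119.1, PRSS33, CD52 and TMED10P2. Both held the same 4 at or under 0.1 CPM: LRRN3, LILRA6, AL109809.2 and LINC01733. LILRB3 came close to these, with a mean of 0.132 CPM in the SMYD3 experiment's control libraries and 0.0162 CPM with PBS. In 15 of the 30 genes the mean in the SMYD3 experiment's control libraries was above the gene's own mean with the UHRF1 siRNA. UHRF1 itself averaged 66.1 ± 2.03 CPM in the UHRF1 experiment's control libraries, 10.3 ± 1.59 CPM in those of the SMYD3 experiment (SD, n = 3 each), 46.8 ± 0.808 CPM with PBS (SD, n = 2) and 136.3 ± 0.521 CPM in parental cells (SD, n = 3); its part in the levels of the 30 genes was not tested.

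**Figure D3:**
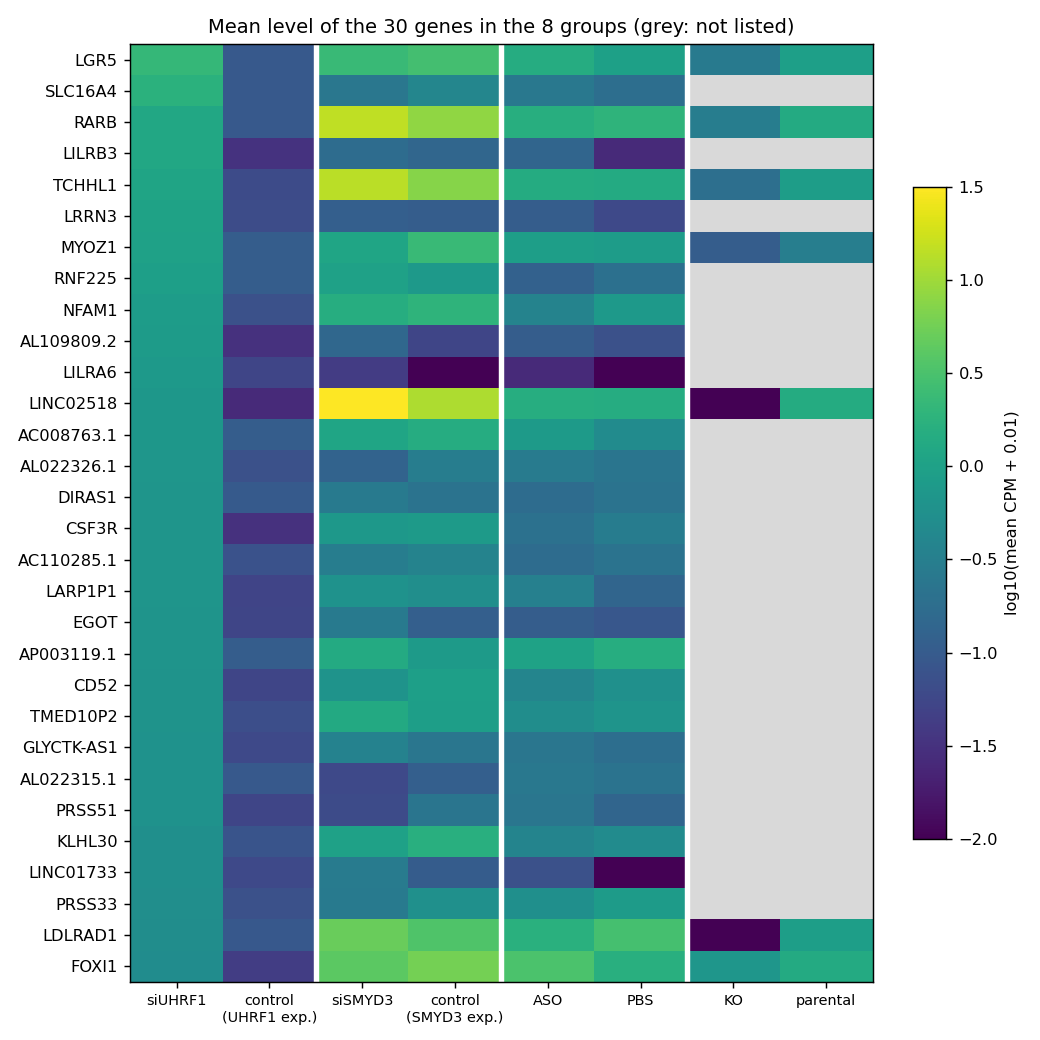
Mean CPM of the 30 genes in the 8 groups, as log10(mean CPM + 0.01), in the order of their level with the UHRF1 siRNA; grey marks the 23 genes that the knockout table does not list. The UHRF1 experiment's control column is dark throughout, while 17 genes reach 0.5 CPM in the SMYD3 experiment's control column and 12 with PBS.

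No gene of the set was switched on by the same rule after loss of SMYD3. The rule picked 2 lines of 60554 in the SMYD3 siRNA table (0.00330%), 1 of 57316 in the ASO table (0.00174%) and 67 of 17421 in the knockout table (0.385%), none of them among the 30. Only 4 of the 30 with the SMYD3 siRNA, 6 with the ASO and 0 of the 7 listed in the knockout table were at or under 0.1 CPM in the control libraries, so only these could have been switched on. In the other direction, 5 lines of the SMYD3 siRNA table (0.00826%) and none of the ASO table were switched off, and no gene of the set was among these. In the clone 389 lines (2.23%) were at or under 0.1 CPM and at or above 0.5 CPM in parental cells, and LINC02518 and LDLRAD1 were among these. Summed over the 30 genes, the level was 95.3, 82.0 and 81.6 CPM with the SMYD3 siRNA against 47.9, 58.8 and 55.1 CPM with its control siRNA. It was 18.8 and 18.1 CPM with the ASO against 19.3 and 17.6 CPM with PBS. The 7 listed genes summed to 1.37, 1.45 and 1.73 CPM in the knockout clone against 7.06, 6.93 and 7.58 CPM in parental cells.

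The SMYD3 siRNA comparison asks whether loss of SMYD3 touches the genes that were on with the UHRF1 siRNA. UHRF1 itself was lower in these cells. It had 2.53, 2.74 and 3.46 CPM with the SMYD3 siRNA against 11.97, 8.82 and 10.1 CPM with the control siRNA (edgeR log2 fold change -1.68 ± 0.14 SE, adjusted p = 4.3e-07). SMYD3 itself averaged 2.72 ± 0.120 CPM with its siRNA and 15.8 ± 1.95 CPM with the control siRNA (SD, n = 3 each). Of the 30 genes 22 had enough reads for the test: 6 were called higher and 4 lower by edgeR (adjusted p under 0.05), where 24.2% of all 18983 genes tested were higher and 24.4% lower. The median log2 fold change of the 22 was -0.07, against -0.02 over all genes tested. By the libraries alone, 9 of the 30 were higher and 7 lower with no overlap between groups, where 11.7% of all lines with reads were higher and 23.4% lower in this way.

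LINC02518 had 39.3, 30.4 and 30.9 CPM with the SMYD3 siRNA against 8.68, 13.5 and 12.6 CPM with the control siRNA. Every library of the SMYD3 siRNA was above every control library (log2 fold change 1.66 ± 0.15 SE, edgeR adjusted p = 7.7e-06, n = 3 each). It made up more of the summed level than any other gene of the set here. RARB had 14.4, 16.6 and 12.7 CPM with the SMYD3 siRNA against 8.59, 8.20 and 7.96 CPM with the control siRNA (log2 fold change 0.95 ± 0.11 SE, edgeR adjusted p = 6.1e-06, n = 3 each). TCHHL1 had 16.9, 10.4 and 13.7 CPM with the SMYD3 siRNA against 5.88, 8.45 and 7.30 CPM with the control siRNA (log2 fold change 1.06 ± 0.16 SE, edgeR adjusted p = 2.1e-04, n = 3 each). Neither gene's groups overlapped.

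LDLRAD1 had 5.74, 4.27 and 4.96 CPM with the SMYD3 siRNA against 3.61, 3.76 and 3.07 CPM with the control siRNA (log2 fold change 0.65 ± 0.13 SE, edgeR adjusted p = 8.4e-04, n = 3 each). AP003119.1 and TMED10P2 completed the higher genes, with log2 fold changes of 0.95 ± 0.20 and 0.69 ± 0.20 (SE; edgeR adjusted p = 0.0014 and 0.010, n = 3 each). On the lower side MYOZ1 had 1.13, 1.07 and 1.20 CPM with the SMYD3 siRNA against 1.70, 2.71 and 2.53 CPM with the control siRNA (log2 fold change -0.89 ± 0.20 SE, edgeR adjusted p = 0.0021, n = 3 each). PRSS33 and AL022326.1 were lower by log2 fold changes of -0.97 ± 0.31 and -1.15 ± 0.38, and KLHL30 by -0.51 ± 0.19 (SE; edgeR adjusted p = 0.017, 0.022 and 0.040, n = 3 each). These last 3 calls did not hold throughout: by DESeq2 the adjusted p was 0.093 for PRSS33, 0.16 for AL022326.1 and 0.12 for KLHL30. Over all alternatives by edgeR or DESeq2 the adjusted p ran from 0.011 to 0.11 for PRSS33 (lost also without SMYD3 siRNA replicate 1 or 3), from 0.019 to 0.16 for AL022326.1 (lost without any of the 3 SMYD3 siRNA replicates) and from 0.029 to 0.16 for KLHL30 (lost without SMYD3 siRNA replicate 1 or 2 or control replicate 2 or 3). That of TMED10P2 ran from 0.013 to 0.054, the highest without control replicate 3.

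Several of the highest genes of the set did not pass the test here. LGR5 had 2.13, 2.39 and 2.60 CPM with the SMYD3 siRNA against 1.61, 3.36 and 3.59 CPM with the control siRNA, and the groups overlapped (log2 fold change -0.13 ± 0.26 SE, edgeR adjusted p = 0.71, n = 3 each). SLC16A4 averaged 0.234 ± 0.113 CPM with the SMYD3 siRNA and 0.391 ± 0.0743 CPM with the control siRNA, and NFAM1 1.52 ± 0.179 and 1.89 ± 0.291 CPM (SD, n = 3 each). LILRB3, LILRA6 and LRRN3 had too few reads, with means of 0.163, 0.0316 and 0.106 CPM with the SMYD3 siRNA and 0.132, 0 and 0.0963 CPM with the control siRNA.

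With the ASO, 14 of the 30 genes had enough reads for the test, and 1 was called higher and 1 lower by edgeR (adjusted p under 0.05), where 11.3% of all 18233 genes tested were higher and 10.3% lower. SMYD3 averaged 3.65 ± 0.662 CPM with the ASO and 22.03 ± 0.966 CPM with PBS, and UHRF1 57.2 ± 1.39 and 46.8 ± 0.808 CPM (SD, n = 2 each). FOXI1 had 3.26 and 3.25 CPM with the ASO against 1.75 and 1.47 CPM with PBS (log2 fold change 1.08 ± 0.18 SE, edgeR adjusted p = 0.0012, n = 2 each). LDLRAD1 had 1.95 and 1.33 CPM with the ASO against 2.88 and 3.06 CPM with PBS (log2 fold change -0.79 ± 0.20 SE, edgeR adjusted p = 0.016, n = 2 each). The LDLRAD1 call was lost without ASO replicate 2 (edgeR adjusted p = 0.099) and by DESeq2 (0.064), in a range from 7.5e-04 to 0.099 over the alternatives. The median log2 fold change of the 14 was -0.20, against -0.0043 over all genes tested. By the libraries alone, 8 of the 30 were higher and 6 lower with no overlap, where 17.3% of all lines with reads were higher and 28.1% lower in this way.

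RARB, TCHHL1 and LINC02518 were not called with the ASO. RARB had 1.56 and 1.59 CPM with the ASO against 1.91 and 1.81 CPM with PBS, TCHHL1 1.34 and 1.49 against 1.39 and 1.34 CPM, and LINC02518 1.56 and 1.46 against 1.55 and 1.40 CPM. Their log2 fold changes were -0.17 ± 0.20, 0.12 ± 0.22 and 0.10 ± 0.22 (SE; edgeR adjusted p = 0.60, 0.75 and 0.79, n = 2 each). LGR5 had 1.44 and 1.53 CPM with the ASO against 1.00 and 0.936 CPM with PBS, with no overlap, and missed the threshold (edgeR adjusted p = 0.060, n = 2 each).

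In the knockout clone the 6 genes of the set that could be tested were all lower than in parental cells. They entered that table through their level in parental cells, under a filter that is not given in the sources used here. Their common direction, single p-values and lack of overlap are therefore no support. Of all 16968 genes tested 42.6% were lower and 42.1% higher. With no overlap between groups 50.6% of lines with reads were lower and 34.5% higher. LINC02518 had no reads in any library of the clone, against 1.25, 1.51 and 1.54 CPM in parental cells, at least 53.2-fold lower when 3 reads over the group are the floor (limma adjusted p = 1.4e-08, n = 3 each). LDLRAD1 likewise had no reads in the clone, against 1.13, 0.713 and 0.854 CPM in parental cells, at least 33.3-fold lower (limma adjusted p = 2.8e-07, n = 3 each). RARB had 0.335, 0.335 and 0.216 CPM in the clone against 1.25, 1.34 and 1.46 CPM in parental cells (limma log2 fold change -1.92 ± 0.27 SE, adjusted p = 1.0e-05, n = 3 each).

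TCHHL1 had 0.0559, 0.126 and 0.360 CPM in the clone against 0.686, 0.799 and 1.19 CPM in parental cells, and LGR5 0.335, 0.252 and 0.180 CPM against 1.09, 1.08 and 0.634 CPM. The groups of neither gene overlapped (limma log2 fold changes -2.19 ± 0.48 and -1.57 ± 0.34 SE, adjusted p = 6.2e-04 and 5.3e-04, n = 3 each). FOXI1 had 0.587, 0.566 and 0.901 CPM in the clone against 1.33, 1.40 and 1.41 CPM in parental cells (limma log2 fold change -0.82 ± 0.23 SE, adjusted p = 0.0046, n = 3 each). TCHHL1, LGR5 and FOXI1 also entered the table through their parental level, so these p-values are no support. MYOZ1 was listed but too low for the test, with 0.0559, 0.168 and 0.0721 CPM against 0.323, 0.0856 and 0.496 CPM, which overlap. In the clone SMYD3 averaged 2.64 ± 0.514 CPM against 10.4 ± 0.529 CPM in parental cells, and UHRF1 161.5 ± 2.06 against 136.3 ± 0.521 CPM (SD, n = 3 each).

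**Figure D4:**
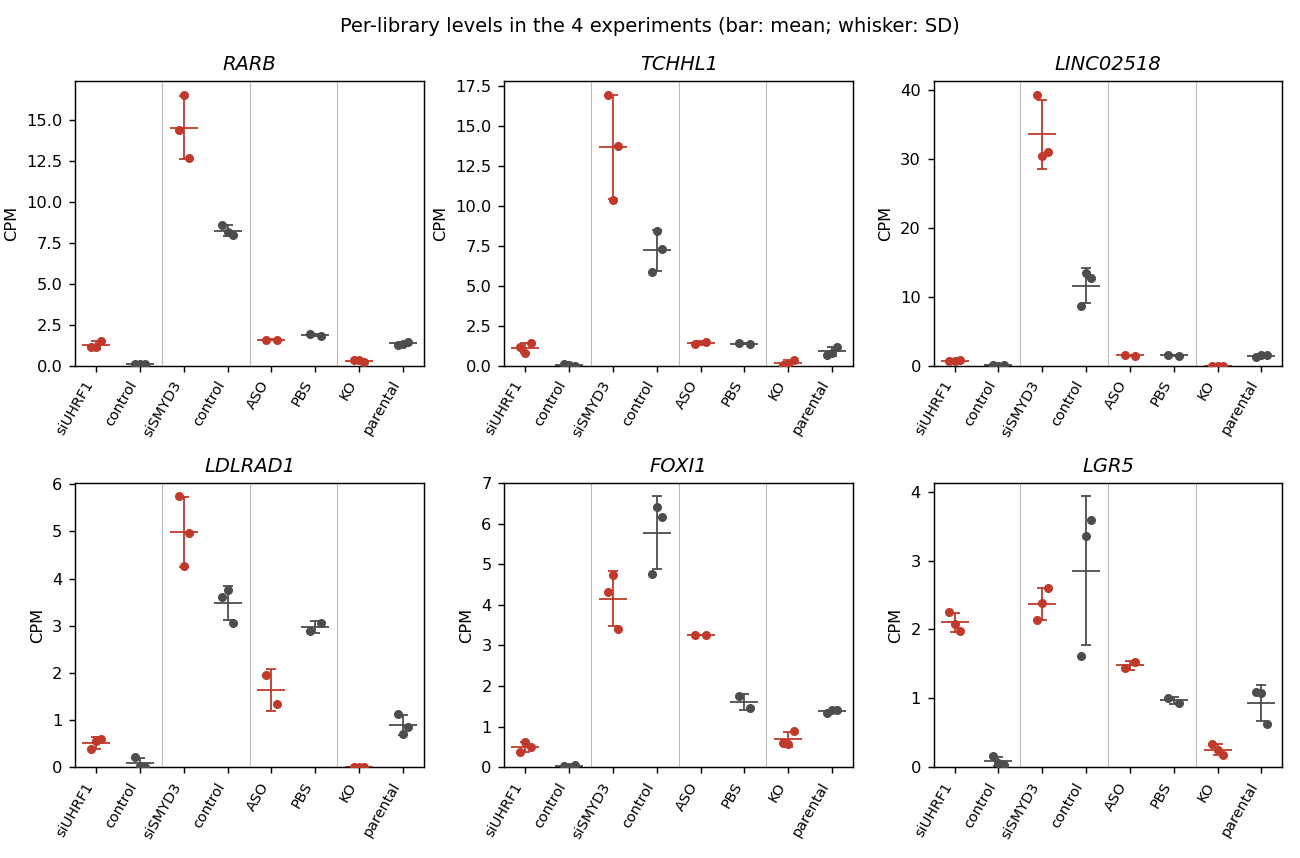
CPM of 6 genes of the set in every library of the 4 experiments (linear axis from 0; points are libraries, bars the mean and whiskers the SD; red are the siRNA, ASO and knockout libraries, grey their controls). RARB, TCHHL1 and LINC02518 stand highest in the SMYD3 siRNA experiment and are lower in the knockout clone than in parental cells, where LINC02518 has no reads.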

How the data were processed

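RNA was measured by sequencing of poly(A) RNA with a stranded kit, per the labels' protocols. Per the submitters' processing notes the tools were bcl2fastq and Bowtie on hg38. Tool versions, what counted the reads and the annotation's release were not given in the sources used here. Whole-number counts per gene are what the authors deposited for the UHRF1 siRNA, SMYD3 siRNA and ASO comparisons. The knockout table, as deposited, holds a normalized signal: gene counts divided by 1 factor per library. Dividing by each library's smallest step gave whole reads for 100% of its values within 0.01, so CPM in that table comes from recovered reads.

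CPM is the count over the column total, times 1e6. The genes and all lists were chosen with earlier results of these data known. Count tables were tested alone with edgeR 4.0.16 (two-sided quasi-likelihood F-test with robust fitting, TMM scaling and filterByExpr on the groups), and the knockout table with limma 3.58.1 (trend, robust) on log2(value + 1), keeping genes that reached 10 in 3 libraries or more, a scale that understates the change of low genes. P-values were adjusted over all genes by the Benjamini-Hochberg method. R was version 4.3.3 and Python 3.11.15. The steps were tested on simulated data. DESeq2 1.42.0, upper quartile factors, no filter, other pseudocounts, edgeR on recovered reads, a replicate block and leaving out each library were the alternatives.

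Genes were named by a rule: the 20 highest of the set with the UHRF1 siRNA and the 5 highest per kilobase; those called in a SMYD3 comparison; 3 on each side of each limit; those starting within 100 kb of each other; the 4 germline and 4 cancer-testis genes with the largest called change; and UHRF1, SMYD3 and DNMT1. Other genes of the set, overlapping and neighbouring genes, markers and ERFE were named after their values were seen. GENCODE release 29 gave kinds; 98.7% of the lines matched by symbol, and 24 of the 30 genes had the same start in it. The study calls its replicates biological; p-values measure the spread between these libraries.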

Additional observations from a re-analysis of the deposited data

Results flagged for a closer look

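The change after the SMYD3 siRNA differed from that in the other SMYD3 experiments for several of the 30 genes, as it did for many genes outside the set. It is therefore no trait of the set. The tests of the difference between log2 fold changes were chosen after seeing the data, and no explanation was tested. Between the SMYD3 siRNA and the knockout clone, by limma on log2(CPM + 1) over 17148 genes of which 12596 were called, the difference was 2.75 for LINC02518 (adjusted p = 1.4e-10), 1.603 for RARB (4.5e-09), 1.51 for TCHHL1 (6.0e-06) and 1.34 for LDLRAD1 (2.3e-07). The other genes of the set tested here, LGR5, MYOZ1 and FOXI1, were not called (limma adjusted p = 0.077, 0.051 and 0.58). The log2(CPM + 1) scale shrinks the change of genes near 1 CPM, so these differences are smaller than those between fold changes given elsewhere. These genes are in the knockout table through their parental level and were picked for this pattern, so the p-values are no independent support. LINC02518, RARB, TCHHL1 and LDLRAD1 were each higher in 3 of 3 SMYD3 siRNA libraries than in every control library and lower in 3 of 3 clone libraries than in every parental library. Over all lines with reads 11.7% were higher in this way with the SMYD3 siRNA and 50.6% lower in the clone. The share with both was not counted, and as the genes were picked for this pattern it adds no support.

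Between the SMYD3 siRNA and the ASO, by edgeR over 19551 genes of which 6887 were called, the difference was 1.54 for LINC02518 (adjusted p = 0.0038), 1.43 for LDLRAD1 (2.1e-04), 1.40 for AP003119.1 (0.0036) and 1.10 for RARB (0.0012). It was -1.46 for FOXI1 (adjusted p = 3.8e-04), -1.10 for AC008763.1 (0.043) and -1.07 for MYOZ1 (0.033, edgeR). The other genes of the set tested here were not called, TCHHL1 (edgeR adjusted p = 0.051) among them.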

How the results depend on the processing

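Of the 18 calls for genes of the set in the SMYD3 comparisons, 13 held in every alternative that could be run, none reversed and 17 of 180 values lost the call. The 13 include the 6 calls in the knockout clone. Those genes entered the knockout table through their parental level, so that these 6 held is no support. The count of 30 genes became 1 with limits of 0.05 and 1 CPM and 7 when every library had to pass its limit; TMM or DESeq2 scaling gave 32, all 30 among them, and leaving out 1 library 28 to 34, with 25 to 28 of the 30 kept (25 without control siRNA replicate 3). No gene of the set was switched on in the SMYD3 tables in any alternative run, where only 4, 6 and 0 were low enough for it. With the SMYD3 siRNA the 4 lower genes became 1 by DESeq2 and 1 to 5 without a library (1 without SMYD3 siRNA replicate 1, 2 without replicate 3 of either group). With the ASO the 1 higher and 1 lower gene became 2 and 2 with the replicate block (LGR5, edgeR adjusted p = 0.030, and NFAM1, 0.021, gained), the lower ones 2 with no filter and 0 by DESeq2, and 0 or 1 without a library (0 without ASO replicate 2). The labels do not say whether same-numbered samples are pairs. Correlations of same-numbered deviations ran from -0.05 to 0.32, with 0.24, 0.32 and -0.04 for the SMYD3 siRNA and 0.23 for the ASO. The block left 6 and 4 calls with the SMYD3 siRNA and 6 in the knockout clone. With the ASO it raised the calls over all genes from 2068 higher and 1880 lower to 3477 and 3296. Whether the ASO samples are pairs is therefore not settled. The 6 lower genes in the clone became 4 where a parental library was left out and fewer passed the filter. At these depths 8 of the 30 with the SMYD3 siRNA and 16 with the ASO had too few reads to test.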
